A study of Mus musculus with 12 samples.

Results

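The nuclear-encoded subunits of the respiratory chain were followed across all 12 libraries of mouse small-intestinal epithelium. They were taken by symbol from the protein-coding genes on nuclear chromosomes: the numbered Ndufa, Ndufb, Ndufc, Ndufs and Ndufv genes with Ndufab1, the 4 Sdh genes, the Uqcr genes, the Cox4 to Cox8 genes and the Atp5 genes. Ndufaf genes, which encode assembly factors, were left out. The rule itself used no measured value, but it was chosen with earlier results of these data known. It found 85 genes among the 48526 gene rows: 37 of complex I, 4 of complex II, 8 of complex III, 19 of complex IV and 17 of ATP synthase. Ndufa4 was counted under complex IV, to which its protein is now assigned. Of the 85 genes, 79 passed the filter on low counts in every test, and the other 6 are described with the levels.

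The libraries came from 4 female mice aged 3 months. In 2 mice the lysine acetyltransferase genes Kat2a and Kat2b had been deleted (the double knockout, DKO), induced by tamoxifen at 100 mg/kg in 10% ethanol and 90% corn oil, given into the peritoneum on 4 consecutive days. The 2 control mice received that solvent without tamoxifen, so genotype and tamoxifen cannot be told apart. The Cre driver and the strain are not given in the sources used here. Epithelial cells were released with EDTA from the proximal small intestine 2 days after the last injection. Each mouse gave an input library of unselected RNA and pulldown libraries made with J2 and with K1, antibodies that bind double-stranded RNA whatever its sequence. The 12 libraries thus form 6 groups of 2, and J2 and K1 are each compared with the same input libraries.

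The respiratory chain carries electrons from NADH and succinate to oxygen, and uses the energy to pump protons across the inner mitochondrial membrane. ATP synthase lets the protons flow back and makes ATP. Complex I takes electrons from NADH, complex II from succinate as a step of the tricarboxylic acid (TCA) cycle, complex III passes them to cytochrome c and complex IV passes them on to oxygen. A few subunits are encoded by the mitochondrial genome. The rest, complex II as a whole among them, are encoded in the nucleus, and their mRNAs are mostly short. NRF1, the ETS factor GABPA and YY1 are known regulators of these nuclear genes, often with the coactivator encoded by Ppargc1a. In the intestinal epithelium, absorptive enterocytes and dividing crypt cells both contain mitochondria.

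Promoter windows from 250 bases before to 50 bases after the RefSeq start (GRCm38.p6) could be matched to 69 of the 85 genes. They were searched on both strands for the NRF1 site (GCGCA and GCGC with any 1 base between them), the GABPA-type ETS site ACCGGAAG and the YY1 site AAGATGGC. The ETS site ends with AAG and the YY1 site begins with it, so these can share letters. The NRF1 site was found in windows of 17 genes (24.6%), against 5.19% of all 27025 genes with a window. The ETS site was found for 6 genes (8.70%, against 2.60%) and the YY1 site for 10 (14.5%, against 3.19%). At least 1 of the 3 was found for 31 genes (44.9%, against 10.2%). Among 17492 protein-coding genes with a window, which the subunits all are, the shares were 7.17%, 3.40%, 3.57% and 13.1%. A gene can have several windows, and these shares describe letters, not binding. Of 23 stretches around a match before a start, 6 overlapped no exon annotated in GENCODE M21 on either strand, and 3 of these are shown. Ndufb4 and Atp5h had less RNA in DKO input, and Atp5e, which encodes the epsilon subunit of ATP synthase, did not pass (-0.29). The 3 genes not shown, Ndufs5 (-0.27), Cox6a1 (-0.03) and Ndufb6 (0.08), did not pass either. Among 20 matched genes that fell, the NRF1 site was found for 6, the ETS site for 2 and the YY1 site for 1. Each stretch shown runs 5′ to 3′ on the gene's strand, with the motif in capitals. In Atp5e the capitals hold the site's reverse complement.
Ndufb4, NRF1 site, GRCm38.p6 chr16:37654525-37654584, minus strand: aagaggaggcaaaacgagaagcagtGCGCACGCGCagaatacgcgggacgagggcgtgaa
Atp5h, NRF1 site, GRCm38.p6 chr11:115420026-115420085, minus strand: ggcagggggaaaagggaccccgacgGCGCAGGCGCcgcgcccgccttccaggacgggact
Atp5e, ETS site, GRCm38.p6 chr2:174464171-174464228, minus strand: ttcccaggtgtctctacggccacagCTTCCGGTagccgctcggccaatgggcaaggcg

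Input libraries held 10307281 to 11474107 counts assigned to genes. Control pulldowns held 13308021 to 16139531, and DKO pulldowns 2220291 to 5826361. The median count of the 85 genes was 579 to 886 in input libraries, but 55 and 61 in DKO J2 and 44 and 95 in DKO K1. Reads listed as aligned to several places made up 5.54% to 8.05% of the listed reads in input and control pulldowns, 15.8% and 29.5% in DKO J2 and 25.9% and 46.7% in DKO K1. The DKO pulldowns therefore stand apart in depth and composition, and their replicates differed more. The median absolute log2 difference between replicates over the tested subunits was 0.06 in control input, 0.16 in DKO input, 0.79 in DKO J2 and 0.57 in DKO K1. The targeted genes were lower in DKO input. Kat2b had 359 and 343 counts in control against 118 and 114 in DKO (log2 fold change -1.51, SE 0.165, edgeR adjusted p 6.32e-04), and Kat2a had 222 and 228 against 84 and 148 (-0.88, SE 0.227, edgeR adjusted p 0.0205).

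Levels in input were compared between genes per length, as TPM, counts divided by the length of the gene's exons and scaled to a fixed total per library. Cox8a, a small subunit of complex IV, had the highest level of the 85 genes in control input, at 1378 ± 60.0 TPM (SD, n = 2). It was followed by the alpha subunit of ATP synthase, Atp5a1, at 1143 ± 22.5 TPM and by Cox6b1 at 1084 ± 25.3 TPM. Over the control animals the 3 did not overlap, but Atp5a1 (1159 and 1128) and Cox6b1 (1066 and 1102) were close. In complex III Uqcr10 was highest, at 483 ± 29.0 TPM, and in complex II the membrane anchor Sdhd, at 608 ± 0.696 TPM. The subunits of complex I were lower per gene, with Ndufa1 at 251 ± 11.9 TPM as the highest. These orders depend on the length used. With the length of the principal transcript in place of all exons, Ndufa11 led complex I at 363 TPM and Atp5b led ATP synthase at 1466 TPM. Atp5b was then also above Cox8a, which stood at 1214 TPM. The summed level of complex IV was 5927 and 6114 TPM in the control animals and 4636 and 5421 TPM in the DKO animals. That of ATP synthase was 4714 and 4608 against 3123 and 3753 TPM, and that of complex I 3651 and 3642 against 2576 and 3273 TPM. In all 3 sums both DKO animals were below both control animals.

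**Figure D1:**
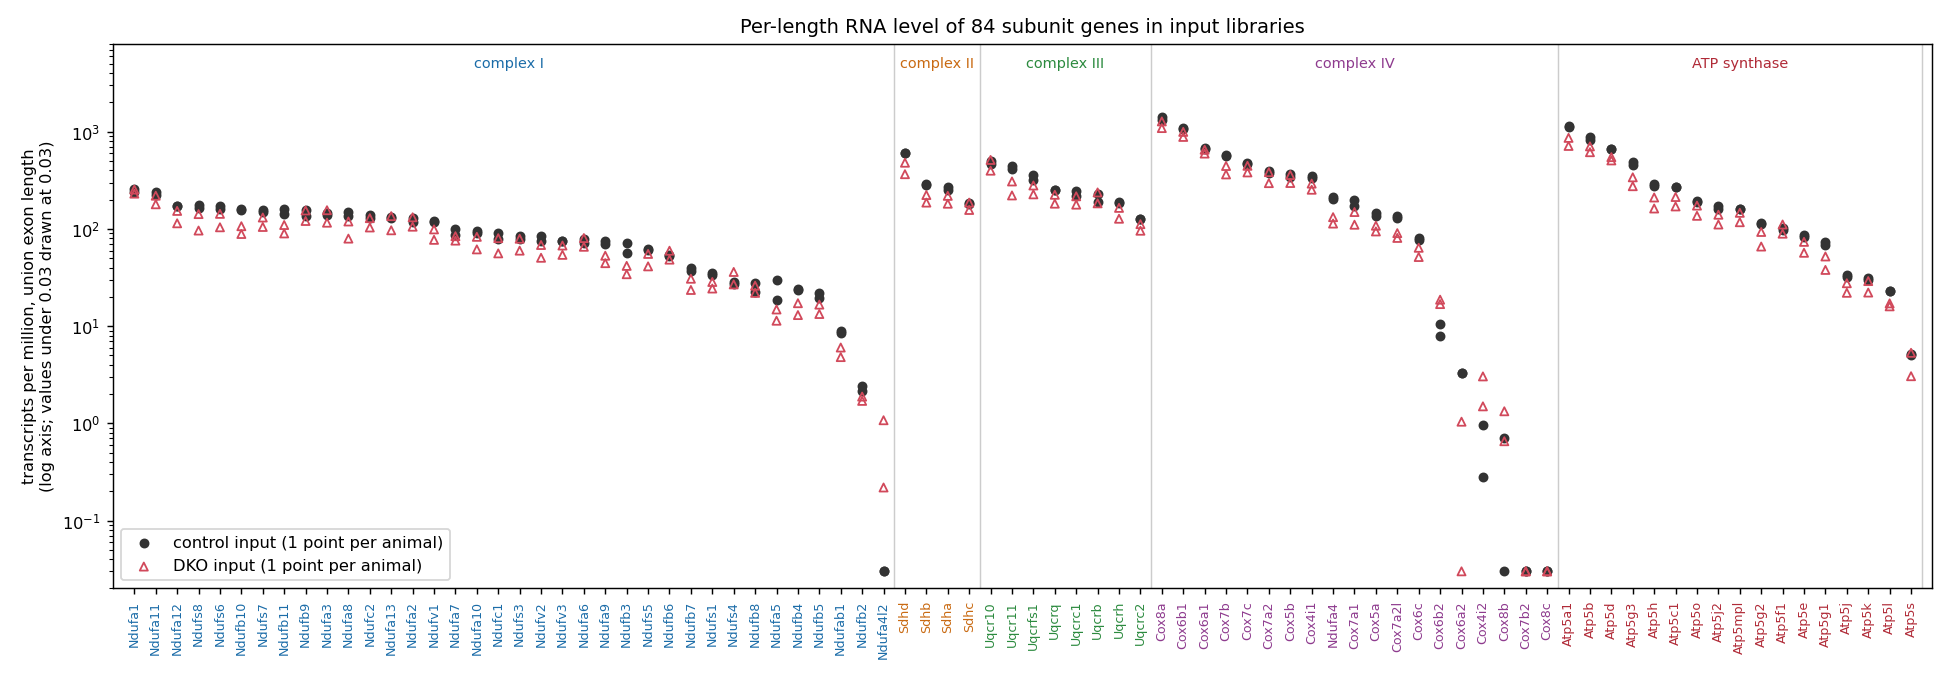
Level of 84 subunit genes in input, as TPM on a log axis, by complex, with 1 point per animal (dots control, triangles DKO, values under 0.03 drawn at 0.03). Complex IV holds both the gene highest by the length of all exons, Cox8a, and the isoforms at or near 0 (Cox4i2, Cox6a2, Cox7b2, Cox8b and Cox8c).

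Several subunits have a second gene that is used in other tissues, and the epithelium used the widely expressed form. Cox6a1 stood at 666 and 685 TPM in control input and 596 and 653 in DKO, whereas Cox6a2, the heart and skeletal muscle form, stood at 3.33 and 3.26 in control and 0 and 1.04 in DKO. Cox4i1 stood at 334 and 350 TPM in control, against 0.959 and 0.282 for Cox4i2, the lung form. The 6 genes that did not pass the filter were all such alternatives. Cox7b2 and Cox8c had 0 counts in all 12 libraries, which allows up to 3 counts in a library. Cox8b had 0 to 2 counts in an input library, Ndufa4l2 0 to 5, Cox4i2 1 to 10 and Cox6a2 0 to 10. An exception was the set of Cox7a genes. Cox7a2, the widely expressed form, stood at 395 and 381 TPM in control input, but Cox7a1, known from heart and muscle, reached 174 and 196 TPM and the related Cox7a2l, whose product joins complexes III and IV into supercomplexes, 128 and 135 TPM. The 3 genes that encode the same mature c subunit of the ATP synthase ring also differed. Atp5g3 stood at 456 and 486 TPM, Atp5g2 at 112 and 115 and Atp5g1 at 74.1 and 69.0, so each was above the next in both animals. Near-identical sequence elsewhere covers 88.2% of the Atp5g2 transcript, so its count is uncertain.

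In unselected RNA most subunits were lower in DKO than in control. Of the 79 tested, 23 fell and 1 rose (24 called, or 30.4%, where 35.9% of all 15088 genes were called). In the downward direction alone the share was 29.1%, against 17.1% of all genes. The median log2 fold change of the 79 was -0.28 (quartiles -0.43 and -0.13), where that of all genes was 0.00, and 70 of 79 were below 0, against 50.1% of all genes. For 65 of the 79 both DKO animals were below both control animals (38.9% of all genes). The calls rest on few animals, and a fit without an animal leaves 1 in its group. With all 12 libraries in the fit none was called (6 at an unadjusted p under 0.05), where 1675 of all 16582 genes were. With the DESeq2 test 15 were, against 4143 of all 15088 genes. The median stayed below 0 without each animal in turn, from -0.40 to -0.22. In bulk RNA, fewer cells of a type and less RNA per cell cannot be told apart.

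**Figure D2:**
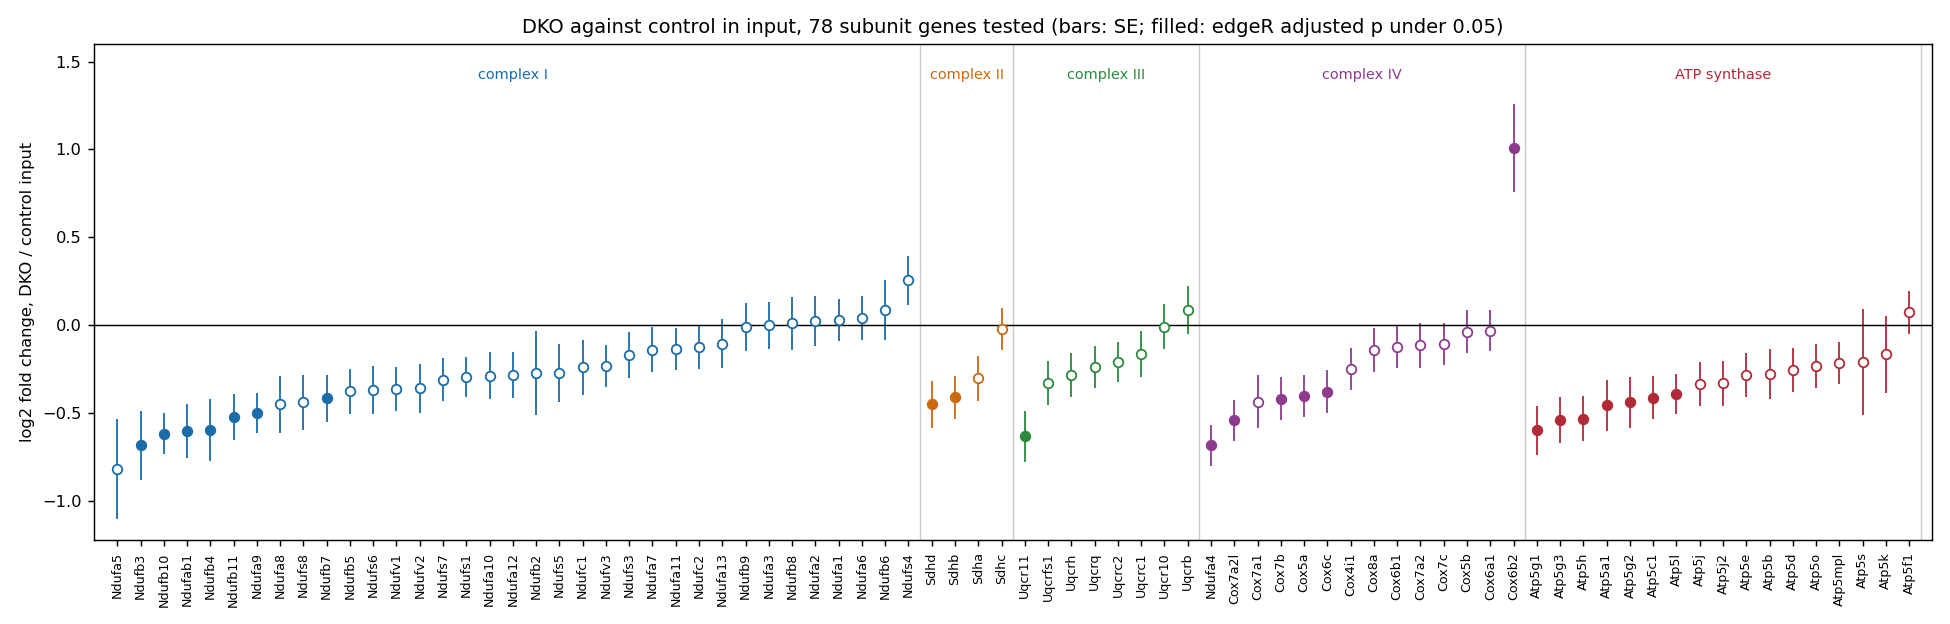
Log2 fold change of DKO against control in input for 78 tested subunits, by complex, with bars of 1 standard error and filled points for adjusted p under 0.05. Points lie mostly between 0 and -0.7, and Cox6b2 stands alone at 1.01.

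The median was below 0 in all 5 complexes, while the share called lower varied around the 17.1% of all genes. In complex I 8 of 36 tested genes fell (22.2%, median -0.29) and in complex II 2 of 4 (50%, -0.36). In complex III 1 of 8 fell (12.5%, -0.22), a share below that of all genes. In complex IV 5 of 14 fell (35.7%, -0.20, with 1 that rose) and in ATP synthase 7 of 17 (41.2%, -0.33). Among the accessory subunits of complex I, Ndufb10 was at 61.2 and 62.2 CPM (counts scaled to the size of the library) in control input and 37.6 and 40.5 in DKO. The groups did not overlap, and the log2 fold change of -0.62 (SE 0.12) had an edgeR adjusted p of 0.00567. Ndufb3 (chromosome 1, 58586384 to 58595964 on GRCm38) went from 13.5 and 17.9 CPM to 9.09 and 9.92 (-0.68, SE 0.20, edgeR adjusted p 0.0308). Leaving out the second control animal, its value was -0.48 (adjusted p 0.306), and without the first DKO animal -0.62 (0.0732). Ndufab1, the mitochondrial acyl carrier protein, went from 19.2 and 19.1 CPM to 11.5 and 12.9 (-0.61, SE 0.15, edgeR adjusted p 0.0197). Its adjusted p was 0.111 and 0.122 without the first and the second control animal. Under the DESeq2 test neither Ndufb3 nor Ndufab1 passed (0.0579 and 0.0575). Among the other accessory subunits, Ndufb4 (-0.60), Ndufb11 (-0.52), Ndufa9 (-0.50) and Ndufb7 (-0.42) fell. Ndufa5 had the lowest value of the complex, -0.82, but did not pass (adjusted p 0.0597). It stood at 6.13 and 9.95 CPM in control input against 4.09 and 4.78 in DKO input. The highest was Ndufs4, at 0.25 (adjusted p 0.199).

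Complex II consists of 4 nuclear subunits. Sdhd, a membrane anchor, stood at 237 and 243 CPM in control input and 157 and 185 in DKO (-0.45, SE 0.13, edgeR adjusted p 0.0349). It did not pass without either control animal (0.139 and 0.199) or without the first DKO animal (0.0591). Sdhb, the iron-sulfur subunit, went from 206 and 207 CPM to 146 and 156 (-0.41, edgeR adjusted p 0.0329). The flavoprotein Sdha was at 349 and 340 against 261 and 282 CPM (-0.30, adjusted p 0.0993). The other anchor, Sdhc, was at 191 and 192 against 177 and 189 CPM (-0.023, adjusted p 0.898). Of the 4 it was nearest to 0, and leaving out the first DKO animal its value was 0.030. In complex III, Uqcr11, a small accessory subunit, went from 84.1 and 93.1 CPM to 49.4 and 61.6 (-0.63, SE 0.15, edgeR adjusted p 0.0131). Near-identical sequence covers 38.4% of its transcript. Uqcrb had the highest value of the complex, 0.087 (adjusted p 0.655), which turned to -0.039 without TMM.

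In complex IV the lowest value was that of Ndufa4 (chromosome 6, 11900292 to 11907497 on GRCm38). It stood at 89.1 and 95.4 CPM in control input and 54.6 and 57.0 in DKO (-0.68, SE 0.12, edgeR adjusted p 0.00395). Cox7a2l (-0.54, edgeR adjusted p 0.00983), Cox7b (-0.42), Cox5a (-0.40) and Cox6c (-0.38) fell as well. The widely expressed forms Cox4i1 (-0.25), Cox6a1 (-0.03), Cox6b1 (-0.13), Cox7a2 (-0.12) and Cox8a (-0.14) did not pass. The single gene that rose was Cox6b2, known as the testis form of subunit 6b. It had 35 and 53 counts in control input against 78 and 88 in DKO input, or 2.79 and 3.82 against 6.50 and 6.47 CPM (1.01, SE 0.25, edgeR adjusted p 0.0178), and without the first control animal it did not pass (0.79, adjusted p 0.141). At 16.9 and 18.7 TPM in DKO it remained far below Cox6b1, at 885 and 997.

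In ATP synthase all 3 genes of the c ring fell. Atp5g1 went from 115 and 110 CPM to 64.8 and 79.8 (-0.60, SE 0.14, edgeR adjusted p 0.0138), Atp5g3 from 315 and 344 CPM to 209 and 231 (-0.54, edgeR adjusted p 0.0165) and Atp5g2 from 59.1 and 62.5 CPM to 38.4 and 48.7 (-0.44, edgeR adjusted p 0.0485). The DKO values lay below the control values in each of the 3. Of the catalytic head, Atp5a1 (-0.46), which encodes the alpha subunit, and Atp5c1 (-0.41), which encodes the gamma subunit of the rotor, fell. So did Atp5h (-0.53) and Atp5l (-0.39), which belong to the stalk and the membrane part and share 71.1% and 57.4% of their transcripts with near-identical sequence. The highest value was that of Atp5f1, a stalk subunit, at 0.073 (adjusted p 0.674), and -0.054 without TMM.

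Other genes of the same pathways were read from lists, beside the 35.9% of all genes called (17.1% lower). Of 13 protein-coding genes of the mitochondrial genome, which supply further subunits, 3 fell and none rose in DKO input (mt-Cytb -0.66, mt-Nd4 -0.58, mt-Nd6 -0.44), with a median of -0.39. Of 14 genes of the TCA cycle 5 fell and none rose, led by Idh2 (-1.58) and Fh1 (-0.79), with a median of -0.25 and 35.7% called, all lower. Of 45 tested assembly factors 3 rose (Cox18 0.99, Sco1 0.76, Surf1 0.55) and 3 fell (Coa7 -1.16, Atpaf2 -0.61, Lrpprc -0.57), with a median of -0.14 and 13.3% called. Of 5 genes listed as electron carriers Cyc1 (-0.51) and Etfa (-0.36) fell and Cycs, cytochrome c, rose (0.59). Cyc1 encodes cytochrome c1, a subunit of complex III that the choice by symbol does not include. Of 10 regulators 3 fell and none rose: Ppargc1a (-0.95, edgeR adjusted p 0.00155), Tfam (-0.77, edgeR adjusted p 0.0261), which maintains mitochondrial DNA, and Gabpa (-0.60, edgeR adjusted p 0.0137). The values of Nrf1 (-0.03, adjusted p 0.875) and Yy1 (-0.04, adjusted p 0.837) did not pass.

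Markers of cell types moved in the same input libraries, where 35.9% of all genes were called (18.8% higher and 17.1% lower). Of 16 proliferation genes 14 fell and none rose (median -1.35, summed level 621 and 530 CPM in control against 188 and 242 in DKO). Of 15 stem cell markers 7 fell and 2 rose (median -0.86, 863 and 855 CPM against 433 and 511). Of 15 enterocyte markers 5 fell and none rose, but the median was -0.09 and the summed level overlapped, at 32891 and 35884 against 38764 and 28887 CPM. All 15 enterocyte markers passed the low-count filter. Of 7 enteroendocrine markers 5 rose, of 10 goblet markers 3 rose and none fell, and of 8 Paneth markers 2 rose and 2 fell. Of 5 tuft markers 3 were tested, and 1 of these rose and none fell. Leukocyte markers were low (143 and 143 CPM in control, 109 and 92.4 in DKO, 12 of 16 tested, 6 of them lower and 2 higher, and 1 at 0 in every input library), and stroma and muscle markers summed to at most 12.1 CPM. The part of these shifts in the lower levels of the subunits was not tested.

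In control animals subunit RNA was depleted from J2 pulldowns relative to input. Of the 79 genes 58 were lower in J2 and none higher (73.4% called, against 29.8% of all genes in either direction and 14.6% lower). The median log2 fold change was -1.77, where that of all genes was -0.07. For 78 genes both J2 libraries lay below both inputs, against 42.7% of all genes. The median of the complexes ran from -2.71 in complex IV (12 of 14 lower) and -1.86 in ATP synthase (12 of 17) to -1.46 in complex I (27 of 36), -1.45 in complex III (6 of 8) and -0.99 in complex II (1 of 4, Sdhb). The calls rest on few animals, and a fit without an animal leaves 1 in its group. Without each animal in turn the median of the subunits ran from -1.89 to -1.71. With the animal as a block and a correction for GC content and length 36 were called, with a median of -1.15, where 2619 of all 15923 genes were called.

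Cox7a2 (chromosome 9, 79755361 to 79759878 on GRCm38) was depleted most. It stood at 118 and 117 CPM in control input and 3.98 and 6.64 CPM in control J2 (-4.46, SE 0.32, edgeR adjusted p 0.00133). The next were Ndufb4, an accessory subunit of complex I (-3.65, SE 0.38), Cox7b (-3.64, SE 0.31), Ndufa4 (-3.55, SE 0.37), Uqcrb (-3.38, SE 0.24) and Ndufc1 (-3.37, SE 0.49), all with an edgeR adjusted p of 0.00353 or lower. Uqcrb went from 63.0 and 54.1 CPM in input to 5.15 and 6.07 in J2, and near-identical sequence covers 62.8% of its transcript. In ATP synthase Atp5l was lowest, at -3.16. At the other end stood Sdha, the flavoprotein of complex II, with 349 and 340 CPM in input and 336 and 331 in J2 (-0.04, adjusted p 0.963), Uqcrc2 (-0.10), Ndufb2 (-0.21) and Atp5a1 (-0.26), none of which passed. The single value above 0 was that of Cox7a2l, with 59.9 and 64.9 CPM in input and 87.9 and 107 in J2 (0.64, SE 0.27, adjusted p 0.101). Ndufa13 and Ndufb5 (edgeR adjusted p 0.0472 and 0.0463) did not pass with the animal as a block (0.0628 and 0.0553).

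In DKO animals 48 of the 79 were lower in J2 than in input and none was higher (60.8% called, against 25.7% of all genes in either direction and 13.4% lower), with a median of -1.59 where that of all genes was 0.10. Complex IV again had the lowest median (-2.62, 11 of 14), followed by ATP synthase (-1.59, 9 of 17), complex III (-1.44, 6 of 8), complex I (-1.18, 20 of 36) and complex II (-1.06, Sdhc and Sdhd of 4). Sdhc (-2.0, edgeR adjusted p 0.0181) did not pass without either control animal (0.098 and 0.0832). Uqcrb (-4.48, SE 0.28) and Cox7a2 (-4.44, SE 0.34) were depleted most, both with an edgeR adjusted p of 0.00118. Ndufa4 (-3.77), Atp5l (-3.68), Cox7b (-3.59) and Cox7a1 (-3.50) followed. Atp5k had at most 3 counts in both DKO J2 libraries and no fold is given. The DKO animals differed for some of the large subunits. Sdha stood at 1286 CPM in J2 of the first DKO animal and 342 in that of the second, against 261 and 282 in input (1.61, SE 0.57, adjusted p 0.0698, and 0.17 without the first animal). Ndufv1, which binds NADH, was at 222 and 61.1 CPM against 70.9 and 81.3 (0.92, adjusted p 0.199), and -0.52 without the first animal. For Uqcrc1 (0.63) and Atp5a1 (0.12) the values without that animal were -0.58 and -1.51. The median of the subunits ran from -1.80 to -1.38 without each animal in turn.

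K1 pulldowns of control animals were depleted of subunit RNA as well. Of the 79 genes 46 were lower in K1 than in input and 1 was higher (59.5% called, against 39.8% of all genes in either direction, 20.1% lower and 19.7% higher), with a median of -0.83 where that of all genes was 0.00. Complex IV had the lowest median (-1.51, 12 of 14 lower), followed by ATP synthase (-0.86, 11 of 17), complex I (-0.79, 21 of 36), complex III (-0.41, 2 of 8) and complex II (-0.29, 0 of 4). Cox7a2 was again lowest, with 10.7 and 8.57 CPM in K1 (-3.68, SE 0.22, edgeR adjusted p 5.49e-05), followed by Uqcrb (-2.99), Ndufc1 (-2.58), Ndufa3 (-2.54), Atp5l (-2.15) and Cox7c (-2.10). Cox7a2l (chromosome 17, 83501918 to 83517330 on GRCm38) was the single subunit enriched, with 132 and 152 CPM in K1 against 59.9 and 64.9 in input (1.11, SE 0.21, edgeR adjusted p 0.00258). Near-identical sequence elsewhere covers 31.2% of its transcript. Its adjusted p was 0.158 and 0.179 without the first and the second control animal. The median of the subunits ran from -0.85 to -0.81 without each animal in turn. Of the genes above, Cox7a2, Uqcrb and Ndufc1 passed without each animal in turn. Sdha (0.60, adjusted p 0.144) and Ndufv1 (0.55, adjusted p 0.155) were above 0 but did not pass. Uqcr10 (-0.59, adjusted p 0.0501) passed with the animal as a block (0.0203), as did Ndufa5 (-0.78, adjusted p 0.0802, 0.0419 with the block).

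In DKO animals 48 subunits were lower in K1 than in input and 4 were higher (65.8% called, against 35.6% of all genes in either direction, 21% lower and 14.6% higher), with a median of -1.17 where that of all genes was -0.14. The lowest values were those of Cox7a2 (-4.17, SE 0.26, edgeR adjusted p 2.54e-05), Uqcrb (-3.83), Cox7a1 (-3.48), Ndufc1 (-3.22), Ndufa4 (-3.18) and Cox8a (-3.08). By complex, 12 of 14 were lower in complex IV (median -2.05), 9 of 17 in ATP synthase (-1.02), 21 of 36 in complex I (-0.95), 4 of 8 in complex III (-0.78) and 2 of 4 in complex II (-0.69). The 4 enriched genes are a flavoprotein, an NADH-binding core subunit, an accessory subunit also known as GRIM-19, and a core protein of complex III. Sdha (chromosome 13, 74322254 to 74350280 on GRCm38) stood at 1556 and 900 CPM in K1 against 261 and 282 in input (2.09, SE 0.32, edgeR adjusted p 0.00121). Ndufv1 was at 284 and 147 against 70.9 and 81.3 CPM (1.42, SE 0.30, edgeR adjusted p 0.00548), and Ndufa13 at 146 and 96.9 against 42.2 and 52.9 CPM (1.27, SE 0.25, edgeR adjusted p 0.00383). In these 3 both K1 values lay above both inputs, and the first DKO animal had the higher K1 value. Without that animal the values were 1.52, 0.70 and 0.72, all past the threshold. Exons of Ndufa13 overlap those of Tssk6. Uqcrc1 (1.01, SE 0.30, edgeR adjusted p 0.0257) did not pass without the first DKO animal (0.38, adjusted p 0.12) or without either control animal (0.148 and 0.139). Ndufb2 had at most 3 counts in both DKO K1 libraries and no fold is given. Atp5d (-0.67, adjusted p 0.11) and Atp5h (-0.57, adjusted p 0.0911) passed with the animal as a block (0.043 and 0.04).

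**Figure D3:**
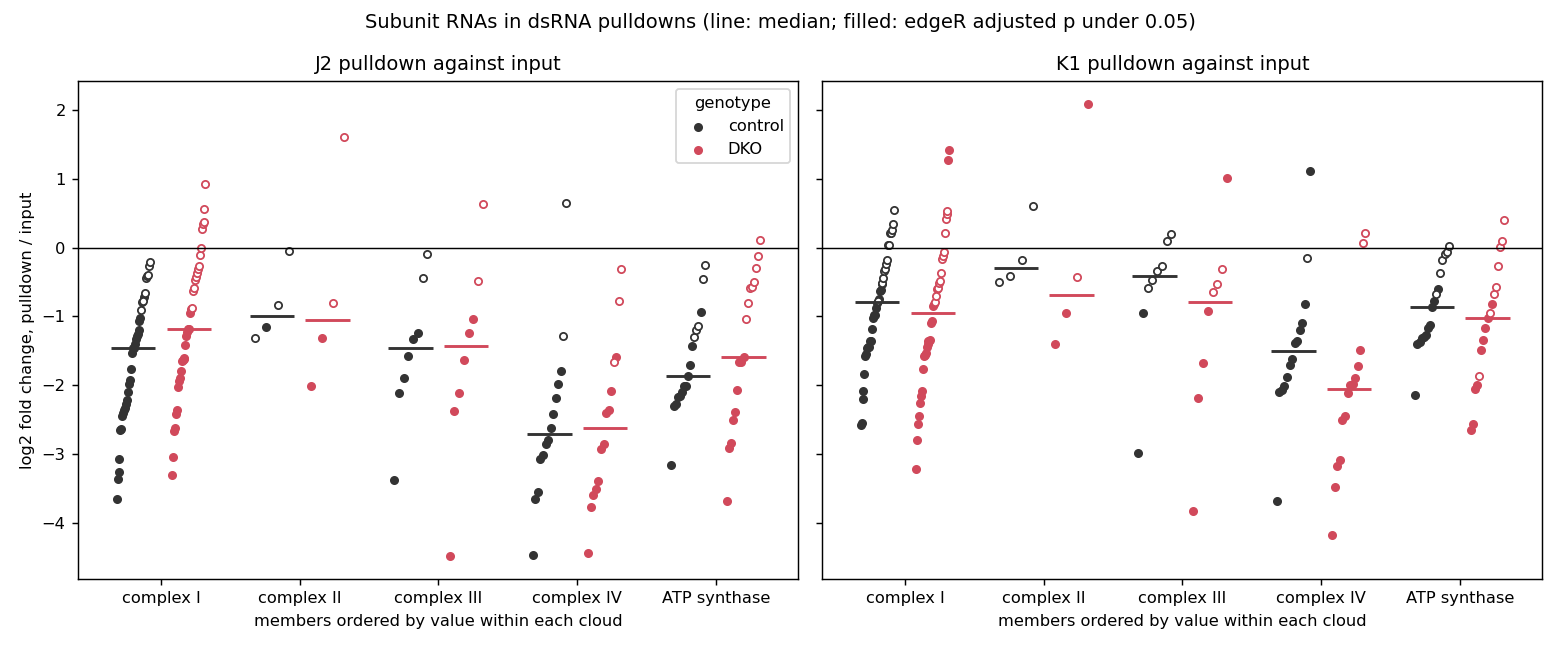
Log2 fold change of J2 against input (left) and K1 against input (right) for each tested subunit, by complex, in control (dark) and DKO (red), with lines at the medians and filled points for adjusted p under 0.05. Complex IV has the lowest median in every panel, from -2.71 in control J2 to -1.51 in control K1, and Sdha lies above 0 in DKO.

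The subunits share short transcripts, which the rule did not use. Their principal transcripts had a median length of 809 bases (360 to 4715), where that of all genes was 2735. Across the 79 genes, which share libraries and are not independent replicates, the log2 fold change of control J2 against input was higher for longer transcripts (log2 length, Pearson r 0.57, Spearman rho 0.63), and the same was seen over all 15874 genes with a length (0.42 and 0.46). In control K1 the values were 0.35 and 0.45 for the subunits, and 0.34 and 0.36 over 15855 genes. The medians were then set against those of all genes of the same length class. In J2 the 19 subunits under 600 bases had a median of -2.45 where all genes of that class had -1.29, the 27 of 600 to 999 bases -2.01 against -1.13, the 14 of 1000 to 1499 bases -1.26 against -0.76, and the 11 of 1500 to 1999 bases -1.20 against -0.46. In K1 the same classes had -1.45 against -1.47, -0.86 against -0.88, -0.48 against -0.42, and -0.27 against -0.25. In these classes the medians in control K1 were thus close to those of other genes of like length, and those in control J2 were lower. In DKO K1 the same classes had -2.08 against -1.21, -1.02 against -0.76, -0.87 against -0.41, and -0.30 against -0.26. In control, the class of 2000 to 2999 bases holds 4 subunits, with -0.33 against -0.20 in J2 and 0.13 against -0.11 in K1. The class of 3000 bases and over holds 4 subunits only, with -0.78 against 0.46 in J2 and -1.05 against 0.34 in K1. Of these 4, 1 was called lower in J2 and 3 in K1. Atp5g1 was lower in both (-2.01 and -1.30), whereas Ndufab1 did not pass in J2 (-0.26, adjusted p 0.442) and was lower in K1 (-0.80).

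**Figure D4:**
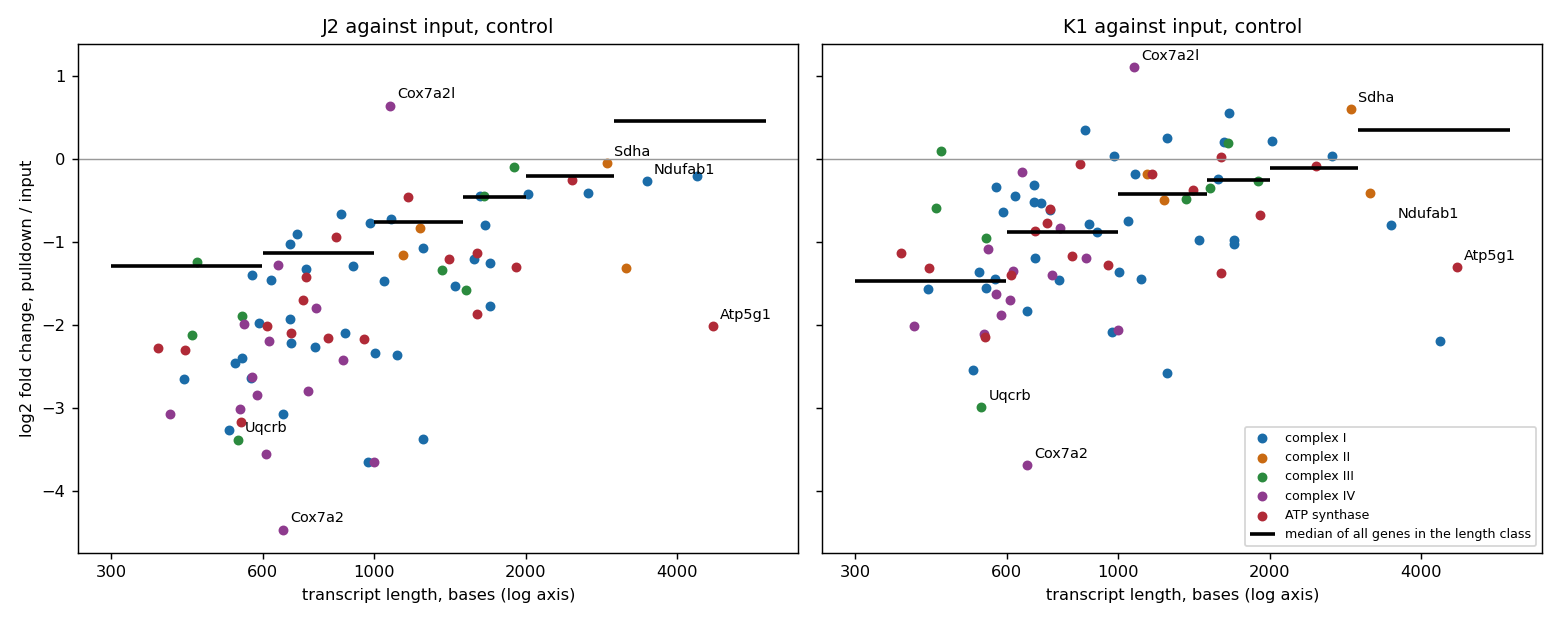
Log2 fold change of control pulldown against input for each tested subunit by transcript length (log axis), J2 left and K1 right, coloured by complex, with black lines at the median of all genes in each length class. In J2 most subunits lie below the lines, in K1 they lie around them, and Cox7a2l is above in both.

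Whether depletion differed between genotypes was tested for each antibody as the difference of the log2 fold changes, DKO minus control. For J2 none of the 79 subunits passed in edgeR (2.71% of all genes did, 0.772% with a higher and 1.94% with a lower value in DKO), with 15 at an unadjusted p under 0.05. The DESeq2 test gave 7, where 2018 of all 15923 genes passed. The median difference was 0.27, where that of all genes was 0.00, but -0.09 without the first DKO animal. In complex I 30 of 36 values were above 0, with a median of 0.53 (49.9% of all genes were below 0). The highest were Ndufa5 (1.83, adjusted p 0.0936), Sdha (1.65) and Ndufa13 (1.62, adjusted p 0.0946), and the lowest were Ndufab1 (-1.63, adjusted p 0.0612) and Uqcrb (-1.10). For Ndufab1, J2 minus input in the same animal was -0.35 and -0.18 for control and -1.96 and -1.75 for DKO, so that the animals of the genotypes did not overlap. For Sdha it was -0.06 and -0.04 for control, and 2.30 and 0.28 for DKO. Without the second DKO animal the median difference of the subunits was 0.36.

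For K1 6 of 79 subunits passed, all with a lower value in DKO than in control (7.59%, against 5.47% of all genes in either direction, 4.1% lower and 1.37% higher), and 20 did at an unadjusted p under 0.05. The median difference was -0.26, where that of all genes was -0.20, and it was -0.56 without the first DKO animal and -0.095 without the second. Other settings gave calls in both directions. The DESeq2 test gave 3 higher and 6 lower, where 1253 of all 15908 genes were called. With the animal as a block after thinning to the depth of the shallowest library 3 were higher and 3 lower (median 0.091). In that setting 866 of all 11279 genes were called. With all 12 libraries in the fit none passed (13 at an unadjusted p under 0.05), where 59 of all 16582 genes did. Both DKO animals lay below both control animals for 35 of the 79, against 38.2% of all genes. Cox8a (chromosome 19, 7215153 to 7217616 on GRCm38) had the largest. It stood at 261 and 285 CPM in control input and 138 and 133 in control K1, and at 235 and 247 CPM in DKO input and 36.8 and 22.6 in DKO K1. K1 minus input in the same animal was thus -0.92 and -1.10 for control and -2.67 and -3.43 for DKO, a difference of -2.0 (SE 0.362, edgeR adjusted p 0.0203). For Uqcr10, a small subunit of complex III, the same values were -0.48 and -0.54 for control and -2.23 and -1.95 for DKO (-1.60, SE 0.319, edgeR adjusted p 0.026). For Ndufa4 they were -1.51 and -1.73 for control and -2.81 and -3.46 for DKO (-1.47, SE 0.313, edgeR adjusted p 0.0303). For all 3 both DKO animals lay below both control animals.

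Ndufa7 and Ndufb5 are accessory subunits of complex I, and Atp5j2 is the f subunit of the membrane part of ATP synthase. For Ndufa7 K1 minus input was -1.13 and -1.41 for control and -2.55 and -2.88 for DKO (-1.43, SE 0.295, edgeR adjusted p 0.0278). For Ndufb5 it was -0.22 and 0.02 for control and -1.34 and -1.50 for DKO (-1.35, SE 0.291, edgeR adjusted p 0.0323), and its exons overlap those of Mrpl47. For Atp5j2 it was -1.23 and -1.15 for control and -2.42 and -2.50 for DKO (-1.28, SE 0.295, edgeR adjusted p 0.0374). The genotypes did not overlap in these 3 either. The 6 calls rest on few animals, and a fit without an animal leaves 1 in its group. Without each animal in turn the 6 values stayed between -2.50 (Cox8a) and -1.24 (Ndufa4). All 6 also passed with the animal as a block, but after thinning Ndufa4 and Ndufa7 (both 0.0852) and Ndufb5 (0.161) did not, and with DESeq2 size factors Ndufb5 (0.0523) and Atp5j2 (0.0643) did not. Cox7a1 (-1.47, adjusted p 0.0714), Cox7a2l (-1.03, adjusted p 0.0726) and Sdha (1.49, adjusted p 0.0718) did not pass. With the animal as a block they did (0.0398, 0.0314 and 0.034). For Sdha K1 minus input was 0.50 and 0.84 for control and 2.57 and 1.67 for DKO. With J2 the 6 genes gave -1.92 and -2.05 against -2.79 and -2.95 for Cox8a, and -0.77 and -0.67 against -1.40 and -1.10 for Ndufb5. The J2 values of the DKO animals lay on either side of the control animals for Uqcr10 (-3.74 and -1.76 against -2.06 and -2.17), Ndufa4 (-4.62 and -3.17 against -3.51 and -3.53) and Ndufa7 (-3.13 and -1.27 against -2.34 and -2.52).

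**Figure D5:**
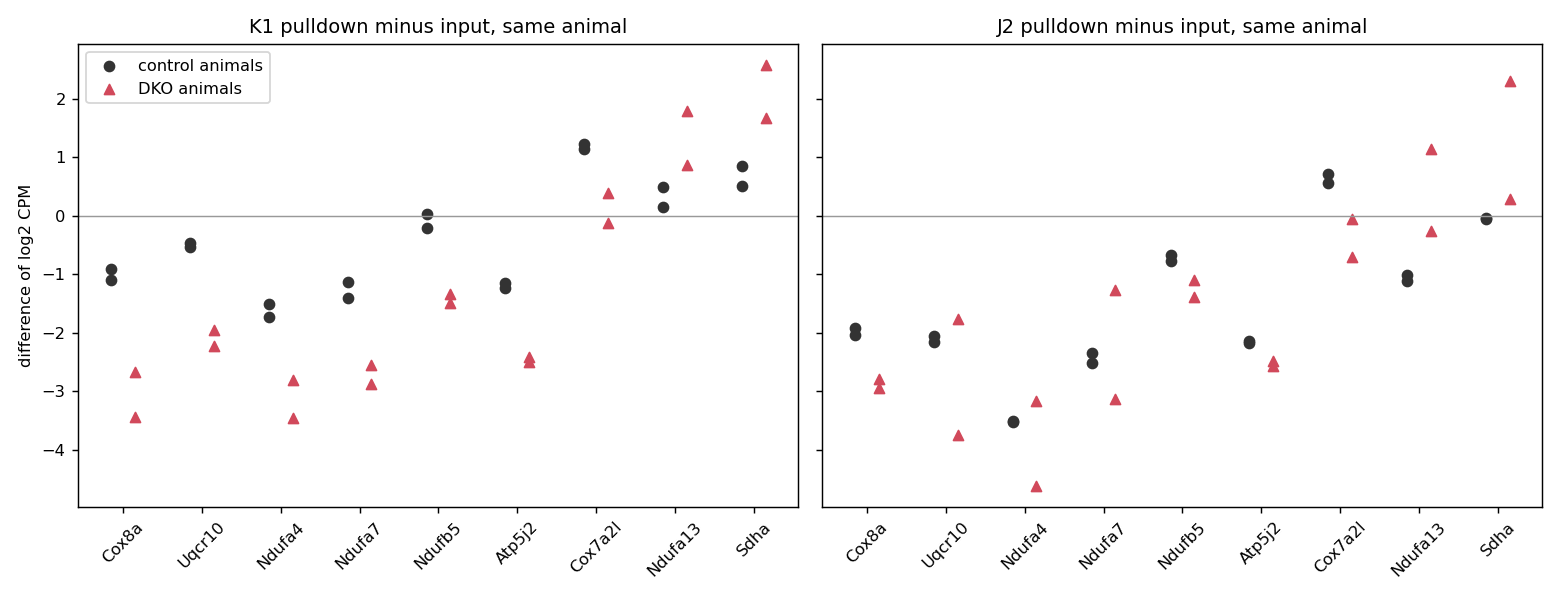
Pulldown minus input of the same animal, on the log2 CPM scale, for the 6 subunits whose K1 difference passed and for Cox7a2l, Ndufa13 and Sdha, K1 left and J2 right, 1 point per animal. In K1 the 6 subunits lie lower in both DKO animals than in both control animals, and Sdha and Ndufa13 lie higher.

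In the same K1 test 11 of the 13 genes of the mitochondrial genome had a higher value in DKO and none a lower one (median 3.44), with mt-Nd6 at 4.43 (SE 0.57, edgeR adjusted p 0.00785). In control K1 10 of these 13 were lower than input and 1 was higher (20.1% and 19.7% of all genes). In DKO K1 9 were higher and 1 was lower (14.6% and 21% of all genes). In the K1 difference mt-Cytb of complex III (1.45, adjusted p 0.124) and mt-Co1 (1.22, adjusted p 0.252) did not pass. Of the 45 assembly factors 1 passed (lower), and of the 14 genes of the TCA cycle and the 5 electron carriers none. Of the 10 regulators 2 passed (lower), Tfam (-2.05) and Nrf1 (-1.10). Over all genes 5.47% passed in the K1 difference, 1.37% higher and 4.1% lower. At an unadjusted p under 0.05, 11 of the 45 assembly factors, none of the 14 and none of the 5 were counted. The part of the reads aligned to several places, whose share also differed between DKO and control pulldowns, was not tested.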

How the data were processed

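Random-primed libraries (12), with ribosomal RNA removed, were read as pairs of 150 bp, per the labels' protocols. The deposited values are raw, unstranded read counts per gene, per the labels; the submitters' processing notes list STAR 2.7.10b, SAMtools 1.17, UMI-tools 1.1.4, HTSeq 2.0.2, DESeq2 1.40.1 and edgeR 3.42.2, and the builds mm10 and GRCm38.p4. The rows of reads outside genes, ambiguous or aligned to several places (18.7% to 61.2% of listed reads) were left out. Without strand, reads of overlapping or antisense genes cannot be told apart; 30 of the 85 genes overlap exons of another gene.

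Counts were tested with edgeR 4.0.16 (R 4.3.3; quasi-likelihood test, TMM, filterByExpr minimum of 10, Benjamini-Hochberg over all genes, adjusted p under 0.05): 4 input libraries, and 8 input and pulldown libraries per antibody with the difference of enrichment as an interaction. CPM used TMM over the 12 libraries, and log2 CPM a prior count of 2. Per-length levels used exon lengths of GENCODE M21 (GRCm38), which matched 48058 gene identifiers without the version. Near-identical sequence was at least 97% identity over 100 bases (blastn 2.17.0). SD is over 2 animals. The fits used group means without an animal term, and 1 spread per gene shared by all groups of a fit. The p-values and SEs of a control pulldown comparison thus also hold the spread of the DKO libraries. That spread was larger, with a median absolute log2 difference between replicates of 0.79 in DKO J2 against 0.08 in control J2.

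Animal codes in the labels pair the libraries of an animal; deviations of paired libraries correlated at 0.302, 0.315 and 0.390 in control and 0.262, 0.227 and 0.495 in DKO. The genes and lists were chosen with earlier results of these data known. Named are, per comparison, up to 6 genes per direction with the largest change (adjusted p under 0.05, mean of 50 counts, no overlap), the extremes and highest levels of each complex, isoform sets, and Kat2a and Kat2b; other subunits are named from lists of calls or for their block result. The values of 1 subunit, which stays in the counts and medians, are not reported here and not drawn in the plots with gene names. Alternatives were other scalings, DESeq2 1.42.0, no filter, all 12 libraries, the block, GC and length correction, thinning and leaving out each animal.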

Additional observations from a re-analysis of the deposited data

Results flagged for a closer look

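The difference of K1 enrichment between genotypes, DKO minus control, passed the test of the difference itself for 6 of 79 subunits (7.59%, where 5.47% of all genes were called and 4.1% were called lower). On the log2 scale it was -2.0 for Cox8a, -1.60 for Uqcr10, -1.47 for Ndufa4, -1.43 for Ndufa7, -1.35 for Ndufb5 and -1.28 for Atp5j2 (edgeR adjusted p 0.0203 to 0.0374). Each was lower in both DKO animals than in both control animals, as were 38.2% of all genes. With all 12 libraries in the fit no subunit passed (13 at an unadjusted p under 0.05), where 59 of all 16582 genes did. After thinning Ndufa4, Ndufa7 and Ndufb5 did not pass. A fit without an animal leaves 1 in its group, and the 6 values there stayed between -2.50 and -1.24.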

How the results depend on the processing

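Over the 7 comparisons and their settings, counts of called subunits moved by over 1.5 times in 25 cases and stayed within that in 57, and medians moved beyond the spread in 28 and not in 54. For DKO against control input, 24 became 15 with the DESeq2 test, 0 with all 12 libraries in the fit and 5 to 41 without each animal in turn. For J2 against input in control, 58 became 36 with the block, GC and length correction and 0 to 76 without each animal. For J2 in DKO, 48 became 14 to 67 without each animal. For K1 in control, 47 became 3 to 61, and in DKO 52 became 43 to 60. The J2 difference, with 0, gave 7 with the DESeq2 test, 1 without the filter, 2 with all 12 libraries and 0 to 35 without each animal. The K1 difference, with 6, gave 10 without TMM, 0 with all 12 libraries, 11 with the block, GC and length correction and 0 to 27 without each animal. The causes were not tested. The median fold change of the subunits turned sign in the differences only: for J2, from 0.27 to -0.066 with the block, GC and length correction and -0.091 without the first DKO animal, and for K1, from -0.26 to 0.091 with the block after thinning.

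With the replicate block, 56, 47, 50, 54, 0 and 9 subunits were called in the 6 pulldown comparisons in the same order. In input, control and DKO animals share only a number (their same-number deviations correlated at 0.03), and the block gave 29 calls in place of 24.

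Some values near 0 turned sign (ranges are without each animal in turn). In input, Atp5f1 was -0.054 without TMM (range -0.014 to 0.16), Sdhc had a range of -0.077 to 0.030, and Uqcrb was -0.039 without TMM (range -0.031 to 0.20). In control J2, Sdha was 0.019 without the filter and Uqcrc2 0.32 with the block, GC and length correction. In DKO J2, Atp5a1 was -0.47 without TMM, -0.13 without the filter, -0.24 with the block, -0.34 with the block, GC and length correction and -0.37 with the block after thinning (range -1.51 to 0.88). Cox7a2l was 0.031 with the block, GC and length correction, and the ranges were -0.52 to 1.67 for Ndufv1 and -0.58 to 1.28 for Uqcrc1. In control K1, Atp5s was -0.094 with DESeq2 size factors, -0.20 without TMM and -0.096 with the DESeq2 test (range -0.24 to 0.26), and Uqcrc1 was -0.036 without TMM and -0.027 with the block after thinning. In DKO K1, Cox5a was -0.16 without TMM (range -0.65 to 0.70) and Atp5a1 had a range of -0.22 to 0.83. For the J2 difference the ranges were -0.013 to 1.72 for Uqcrc1 and -0.77 to 2.07 for Cox6b2, and for the K1 difference -0.47 to 0.85 for Cox5a. The low ends came without the first DKO animal for these values, except those of Atp5f1, Sdhc, Uqcrb and Cox6b2 (without the second) and Atp5s (without the first control animal).

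Without TMM the median of all genes was -0.13 in input, -0.44 and -0.26 in J2 of control and DKO, and -0.23 and -0.48 in K1, and the share of higher calls over all genes went from 52.4% to 42.1%, 51.1% to 34.6%, 47.6% to 21.1%, 49.6% to 35.9% and 41.1% to 22.3%. For the differences it went from 28.5% to 10.5% (J2) and 25.1% to 13.2% (K1, or 39.2% with DESeq2 size factors). DKO pulldowns hold few counts per subunit, which limits the precision of every DKO pulldown value.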

Other observations

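The antibodies were also set side by side on pulldown CPM, without input, as a description. In control animals 76 of the 79 subunits had both J2 values below both K1 values, against 34.6% of 15652 genes, and 2 had both above. The median of J2 minus K1 was -0.98 on the log2 scale, where that of all genes was 0.01. In DKO animals 26 of 79 had both J2 values below both K1 values, against 7.93% of all genes, and none had both above. The median was -0.46, where that of all genes was 0.04.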
